A study of Mus musculus with 12 samples.

Results

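Small intestinal CD103+CD11b- and CD103-CD11b+ dendritic cells (DCs) were compared for how each responded to the loss of Cbfβ, by asking of every gene whether its change upon Cbfβ loss differed between the subsets. The quantity tested was the interaction of genotype and subset, which is the log2 fold change of Cbfb-cKO over WT samples in CD103-CD11b+ DCs minus the same log2 fold change in CD103+CD11b- DCs, so that a positive value is a relative gain in CD103-CD11b+ DCs. All 12 samples of the series entered, 3 from each of 4 groups, and the rule left 20580 of 53801 genes, those with 5 or more counts in at least 1 sample. The Cbfb-cKO mice were Cbfb F/F: CD11c-Cre, in which both floxed Cbfb alleles are recombined by Cre under the CD11c (Itgax) promoter, and the other mice were wild type (WT), with all samples labelled as of mixed background. Each group held 3 samples sorted from different mice on CD11c and MHC-II among CD45+CD64- cells. The labels state neither the age of these mice nor whether same-numbered samples of the subsets came from 1 mouse. CD11c-Cre is also active outside DCs in some lymphocytes, and the third DC subset of the gut, CD103+CD11b+, was not sequenced.

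Cbfβ is the shared partner of the Runx transcription factors. It does not contact DNA itself and raises the affinity with which Runx proteins bind their sites, and the complexes can activate or repress genes. CD103+CD11b- DCs of the intestine are conventional type 1 DCs (cDC1), which are known for cross-presentation to CD8+ T cells, and CD103-CD11b+ DCs are mostly conventional type 2 DCs (cDC2), which prime CD4+ T cells.

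Between 2161929 and 5863484 counts fell on genes in each sample, and levels are given as CPM, read counts brought to a common library size after scaling by the TMM method. Itgam, which encodes CD11b, was at 3.66 to 4.79 CPM in WT and 5.99 to 10.98 CPM in cKO CD103+CD11b- DCs, against 77.9 to 104 and 121 to 222 CPM in CD103-CD11b+ DCs. Xcr1, a chemokine receptor that defines cDC1, ranged from 384 to 472 CPM in WT and 521 to 680.1 CPM in cKO CD103+CD11b- DCs. In CD103-CD11b+ DCs it ranged from 3.998 to 30.2 CPM in WT and 16.4 to 73.9 CPM in cKO samples. Itgam and Xcr1 thus separated the gates, with Xcr1 above 0 in the CD103-CD11b+ gate. Other markers separated the WT gates less. Itgae, which encodes the sort marker CD103, was at 616 to 899 CPM in WT CD103+CD11b- and 138 to 281 CPM in WT CD103-CD11b+ DCs. The cDC2 marker Sirpa was at 137 to 283 and 304 to 374 CPM in these groups. Cbfb itself, counted over the whole gene, was at 228, 216 and 199 CPM in WT and 221, 215 and 290.2 CPM in cKO CD103+CD11b- DCs, and at 184, 161 and 217 and 179.6, 169.6 and 273 CPM in CD103-CD11b+ DCs. These values overlapped in both subsets. The floxed part was not counted separately, so counts over the whole gene gave no check of the genotype labels.

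Upon loss of Cbfβ, 134 genes responded differently in the subsets at a false discovery rate (FDR, the p adjusted over all 20580 genes) under 0.05 and a ratio of fold changes over 1.3, which is 0.651% of the genes tested. The difference was positive for 114 genes (0.554%) and negative for 20 (0.0972%). Thus 85.1% of the called genes gained in CD103-CD11b+ relative to CD103+CD11b- DCs. That share was 65.8% of 506 genes (2.46% of those tested) with DESeq2 and 73.1% of 413 genes (2.01%) with edgeR's likelihood ratio test. Of the 2284 genes at an unadjusted p under 0.05 (11.1% of those tested), 57.3% were positive. The number of called genes rested on single libraries, since leaving out 1 of the 12 gave between 29 and 210 genes. The lowest number came without cKO CD103+CD11b- replicate 1 and the highest without WT CD103-CD11b+ replicate 1. None of the 134 changed direction in any of these fits, which share most samples with the fit that chose them, so this adds no support. Among the 134 genes, 7 changed in both subsets in opposite directions and 2 changed in both in the same direction. By the same limits, 51 changed only in CD103-CD11b+ DCs and 46 only in CD103+CD11b- DCs, and for 28 neither change passed on its own. Without 1 library, the classes of 51 and 46 held 12 to 108 and 11 to 66 genes. For comparison, the change itself was called for 331 genes (1.61%) in CD103-CD11b+ and for 210 genes (1.02%) in CD103+CD11b- DCs. In CD103-CD11b+ DCs 228 rose (1.11%) and 103 fell (0.5%), and in CD103+CD11b- DCs 46 rose (0.224%) and 164 fell (0.797%). A change called in 1 subset only is described here as one-sided, and for these genes it is the interaction test, not the missing call, that speaks to the difference. In bulk samples, fewer cells of a type and less RNA per cell cannot be told apart.

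**Figure D1:**
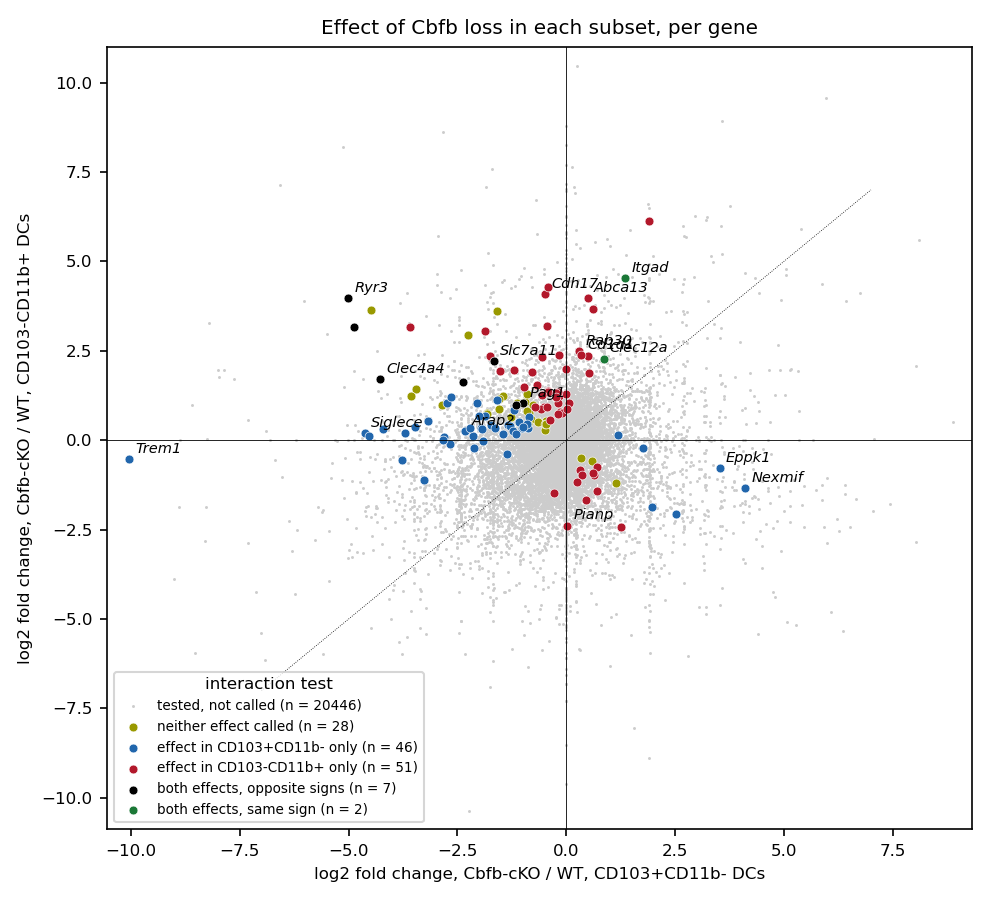
Each point is 1 of the 20580 tested genes, placed by its log2 fold change of Cbfb-cKO over WT in CD103+CD11b- DCs (horizontal) and CD103-CD11b+ DCs (vertical), with the 134 genes called for the interaction coloured by class and the dotted diagonal marking equal changes. The 114 genes with a positive difference lie above the diagonal, among them the 7 opposite genes at the upper left, and the 20 with a negative difference lie below it. Fold changes of genes with no or very few counts in a group depend on the small prior count of the fit.

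The 7 genes with opposite changes all fell in CD103+CD11b- and rose in CD103-CD11b+ DCs, and no gene was called with the reverse pattern by edgeR's quasi-likelihood test or by limma-voom, against 6 by DESeq2 and 4 by edgeR's likelihood ratio test. The opposite class in all held 33 genes by DESeq2, 27 by the likelihood ratio test and 3 by limma-voom. Pag1 (chromosome 3, 9687479 to 9833679, GRCm38), a membrane adaptor that recruits the kinase Csk, was at 111, 101 and 78.3 CPM in WT and 51.04, 44.9 and 50.1 CPM in cKO CD103+CD11b- DCs. CD103-CD11b+ DCs had 69.1, 70.6 and 73.3 CPM in WT and 165, 149 and 123 CPM in cKO samples. The cKO samples lay below all WT samples in the first subset and above all of them in the second, with log2 fold changes of -0.99 (standard error 0.15, FDR 0.0129) and 1.04 (standard error 0.15, FDR 0.00771) and a difference of 2.03 (standard error 0.21, FDR 0.00685).

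Clec4a4 (chromosome 6, 122990367 to 123024105), an inhibitory C-type lectin that marks cDC2, was at 6.5, 4.8 and 6.31 CPM in WT and 0, 0.488 and 0.391 CPM in cKO CD103+CD11b- DCs, and at 15.5, 9.66 and 9.6 and 36.8, 42.4 and 35.2 CPM in CD103-CD11b+ DCs. With 3 counts in the cKO against 79 in the WT CD103+CD11b- samples, the ratio of the levels was 0.0459, with an exact 95% interval of 0.00926 to 0.139 that covers counting error only. In CD103-CD11b+ DCs the log2 fold change was 1.71 (standard error 0.35, FDR 0.0398), and the interaction had an FDR of 0.00685.

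Slc7a11 (chromosome 3, 49892526 to 50443614) encodes the exchanger that imports cystine for glutathione synthesis. It was at 8.89, 19.7 and 16.8 CPM in WT and 3.55, 6.83 and 3.91 CPM in cKO CD103+CD11b- DCs. The CD103-CD11b+ samples were at 33.7, 43.6 and 55.3 CPM in WT and 168, 209 and 236 CPM in cKO mice. The samples of the genotypes did not overlap in either subset, and the rise in CD103-CD11b+ DCs (log2 fold change 2.21, standard error 0.30, FDR 0.00581) was further from 0 than the fall in CD103+CD11b- DCs (log2 fold change -1.67, standard error 0.34, FDR 0.0495), the latter just inside the limit.

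Arhgap6 (chromosome X, 168795099 to 169304435), which encodes a GTPase-activating protein, was at 49.2, 54 and 33.3 CPM in WT and 17.97, 18.3 and 25.03 CPM in cKO CD103+CD11b- DCs, and at 38.6, 41.6 and 45.1 and 79.2, 88.04 and 80.6 CPM in CD103-CD11b+ DCs. Chst10 (chromosome 1, 38863867 to 38898161), a carbohydrate sulfotransferase, was at 15.7, 15.6 and 15.2 CPM in WT and 2.22, 3.66 and 3.13 CPM in cKO CD103+CD11b- DCs. Levels in CD103-CD11b+ DCs were 22.3, 7.33 and 20.1 CPM in WT and 59.04, 53.5 and 42.3 CPM in cKO samples. For both genes the WT samples of the subsets overlapped while the cKO samples did not, and their interaction differences were 2.14 (standard error 0.27, FDR 0.00986) and 3.99 (standard error 0.51, FDR 0.00986).

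Ryr3 (chromosome 2, 112631355 to 113217096), a calcium release channel of the endoplasmic reticulum, was at 10.6, 9.61 and 23.9 CPM in WT and 1.11, 0 and 0 CPM in cKO CD103+CD11b- DCs, and at 0.979, 0.666 and 2.62 and 39.1, 12.1 and 15.8 CPM in CD103-CD11b+ DCs. Its higher subset was thus exchanged between the genotypes. The uncharacterised transcript 2900052N01Rik (chromosome 9, 46913493 to 46927366) was at 5.13, 1.37 and 4.2 CPM in WT and 0, 0.244 and 0 CPM in cKO CD103+CD11b- DCs, the latter resting on 1 count against 47, a ratio of 0.0257 with an interval of 0.000637 to 0.150. In CD103-CD11b+ DCs it was at 3.52, 1.33 and 5.24 and 29.9, 27.8 and 34.2 CPM.

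The interaction of all 7 genes stayed past the limit in each of the 12 fits that left out 1 library. Their place in the class did not, because both single changes must also pass, and without 1 library between 1 and 9 genes were called as opposite.

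**Figure D2:**
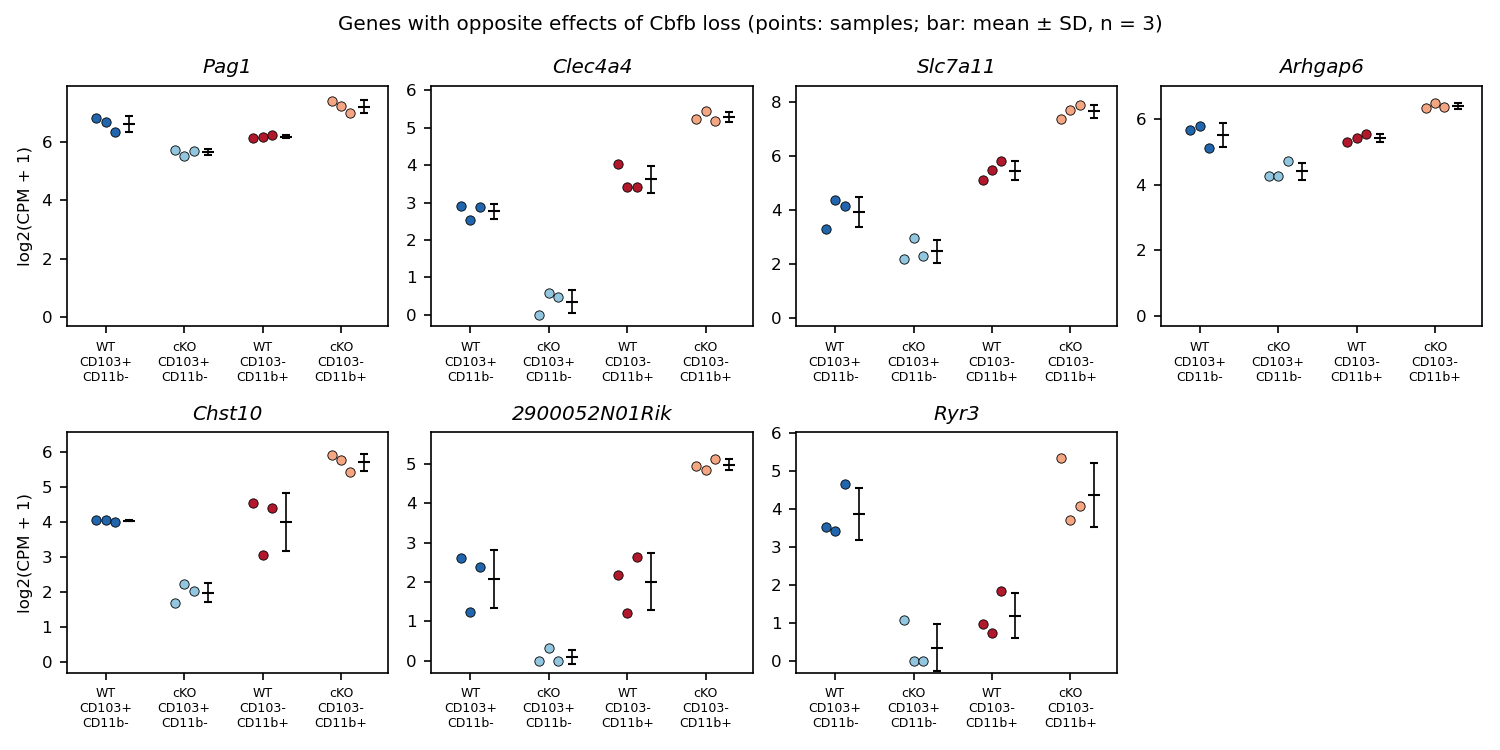
Level of the 7 genes with opposite changes in each sample, as log2(CPM + 1), in WT and Cbfb-cKO (cKO) samples of the CD103+CD11b- and the CD103-CD11b+ subset. Points are samples and the bars beside them give the mean ± SD of the 3 log2 values. In every panel the cKO points lie below the WT points in CD103+CD11b- DCs and above them in CD103-CD11b+ DCs.

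Of the 46 genes with a one-sided change in CD103+CD11b- DCs, 40 fell there and 6 rose. In 36 of the 40 the WT level was higher in CD103-CD11b+ than in CD103+CD11b- DCs, as in 54.1% of all genes. In WT, 24 of the 46 were called higher in CD103-CD11b+ DCs and 4 lower, against 11.8% and 7% of all genes. The WT samples enter both comparisons, and a relation between them was not tested. Arap2 (chromosome 5, 62602445 to 62766159), a GTPase-activating protein for Arf and the gene with the smallest p of all, was at 89.9, 81.9 and 64.8 CPM in WT and 14.4, 15.4 and 17.6 CPM in cKO CD103+CD11b- DCs. In CD103-CD11b+ DCs, WT samples were at 183, 208 and 154 CPM and cKO samples at 233, 203 and 209.6 CPM. The fall was -2.32 (standard error 0.16, FDR 0.000361) in CD103+CD11b- DCs, the change in the other subset was 0.25 (standard error 0.15, FDR 0.406), and the difference was 2.57 (standard error 0.22, FDR 0.00268).

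Paired and inhibitory myeloid receptors, which bind sialic acid, lipids or self proteins and signal through short tyrosine motifs or the adaptor Tyrobp, held 8 of the 114 positive genes among 33 tested members (24.2%, against 0.554% of all genes), and no negative one. Over the list, the median interaction difference was 1.854, the median log2 change was -1.462 in CD103+CD11b- and 0.374 in CD103-CD11b+ DCs, and the median interaction difference over all tested genes was -0.0075. In 21 of the 33 genes every cKO sample lay below every WT sample in CD103+CD11b- DCs, as in 10.6% of all genes. In 11 of the 33 every cKO sample lay above every WT sample in CD103-CD11b+ DCs, as in 9.75% of all genes. This list, like the others, was chosen with earlier results of these data known, so its shares are a description and not a test.

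Trem1 (chromosome 17, 48232768 to 48246924), an activating receptor that amplifies inflammatory signals, was not detected in any cKO CD103+CD11b- sample, with 0 counts against 422 in the WT samples, which were at 46.5, 31.8 and 23.8 CPM. Taking 3 counts over the group as the floor, it was at least 116.5-fold lower. In CD103-CD11b+ DCs it was at 95.1, 52.97 and 78.2 CPM in WT and 41.98, 44.3 and 72.4 CPM in cKO samples, which overlapped.

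Pilra, an inhibitory receptor for O-glycosylated ligands, was at 58.8, 30.9 and 30.1 CPM in WT and 4.66, 2.68 and 3.13 CPM in cKO CD103+CD11b- DCs, and at 125, 82.3 and 68.9 and 99, 113 and 148 CPM in CD103-CD11b+ DCs. Siglece, an inhibitory receptor for sialic acid, was at 48.2, 27.7 and 23.8 CPM in WT and 1.33, 2.2 and 0 CPM in cKO CD103+CD11b- DCs. In CD103-CD11b+ DCs the levels were 127, 68.96 and 75.6 CPM in WT and 88, 109 and 115 CPM in cKO samples. Both had separate genotypes in CD103+CD11b- and overlapping ones in CD103-CD11b+ DCs, with differences of 3.85 (standard error 0.48, FDR 0.00986) and 4.82 (standard error 0.67, FDR 0.013).

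Cd300a, an inhibitory receptor for phospholipids, was at 122, 69.1 and 70.01 CPM in WT and 4.88, 8.05 and 5.87 CPM in cKO CD103+CD11b- DCs, and at 320.4, 226 and 286 and 165, 135 and 271 CPM in CD103-CD11b+ DCs. Its interaction was 3.23 (standard error 0.45, FDR 0.013), and without cKO CD103+CD11b- replicate 1 the FDR was 0.0595 both for Cd300a and for Siglece. With limma-voom the FDR was 0.0547 for both and 0.0572 for Sirpb1a, and 4 members of the list were called, against 16 with DESeq2. Over all genes limma-voom called 0.466%.

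The other called members were Treml2, Cd300lf, Sirpb1a and Treml4. Treml2 fell in CD103+CD11b- DCs (log2 fold change -2.65, standard error 0.45, FDR 0.0233), and Treml4 rose in CD103-CD11b+ DCs (log2 fold change 1.89, standard error 0.20, FDR 0.00128) without a called change in the other subset (log2 fold change 0.51, standard error 0.19, FDR 0.305). Neither single change was called for Cd300lf and Sirpb1a, whose interaction differences were 2.71 (standard error 0.49, FDR 0.0406) and 4.82 (standard error 0.92, FDR 0.0474), and Sirpb1a kept its call in 3 of 12 fits without 1 library. Sirpb1a has close homologs, Sirpb1b and Sirpb1c, between which reads may be split. Their differences just missed the limit, at 4.2 (standard error 0.85, FDR 0.0552) and 6.82 (standard error 1.25, FDR 0.0546). Sirpb1c was at 0.684, 0.915 and 0.323 CPM in WT and had 0 counts in cKO CD103+CD11b- samples. Its difference thus depends on the prior count of the fit. That of Sirpa just missed the limit too, at 3.43 (standard error 0.72, FDR 0.068).

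**Figure D3:**
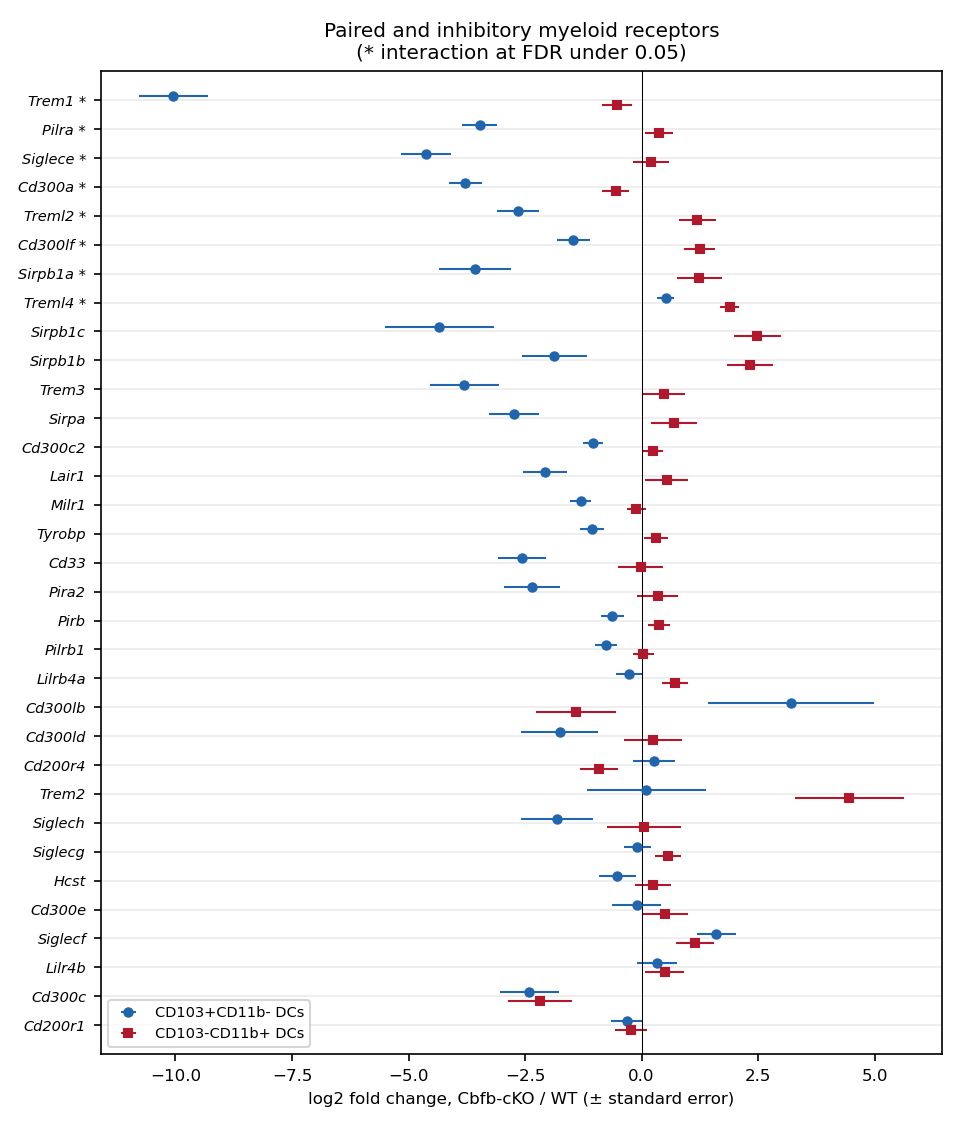
Log2 fold changes of Cbfb-cKO over WT (points, with standard errors) in CD103+CD11b- DCs (circles) and CD103-CD11b+ DCs (squares) for the 33 tested paired and inhibitory myeloid receptors, ordered by the interaction p from the top, with an asterisk at the 8 called genes. In 7 of the 8 called genes the circle lies below 0. The Trem1 and Sirpb1c circles stand for 0 counts in the cKO samples, and their positions depend on the prior count of the fit.

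Markers of plasmacytoid DCs moved with these receptors. The summed level of the 11 markers was 3011, 2572 and 1247 CPM in the WT and 945.8, 1094 and 507.6 CPM in the cKO CD103+CD11b- samples, against 985.4 to 1262 and 969.3 to 1381 CPM in CD103-CD11b+ DCs. All 11 had counts in each group, and in 8 of them every cKO CD103+CD11b- sample lay below every WT sample, as in 10.6% of all genes. Siglech, a receptor of plasmacytoid DCs that is on both lists with Lair1, was at 464, 358 and 159.6 CPM in WT and 111, 149.9 and 17.99 CPM in cKO CD103+CD11b- DCs. The summed markers of T and NK cells were 170 to 308.1 CPM in the WT and 72.8 to 122.3 CPM in the cKO CD103+CD11b- samples. Their part in the result was not tested.

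cDC2 identity genes held 4 of the 114 positive genes among 24 tested (16.7%, against 0.554% of all genes), with a median difference of 1.061. These were Clec4a4, Clec4a2, Clec12a and Sirpb1a. In WT, Clec12a was higher in CD103+CD11b- than in CD103-CD11b+ DCs, at 111, 109 and 116 against 34.1, 30.98 and 23.3 CPM. It rose in both subsets upon Cbfβ loss. The other called members were higher in WT CD103-CD11b+ DCs. Clec4a2, an inhibitory lectin and close homolog of Clec4a4, was at 3.42, 5.26 and 4.2 CPM in WT and 0.444, 0.976 and 0.391 CPM in cKO CD103+CD11b- DCs. CD103-CD11b+ DCs had 27.99, 21.7 and 13.96 CPM in WT and 40.4, 45.2 and 45.9 CPM in cKO samples. In 12 of the 24 genes every cKO CD103+CD11b- sample lay below every WT sample, as in 10.6% of all genes. Itgam, by contrast, was above the WT range in all cKO CD103+CD11b- samples, and the summed level of the list overlapped, at 1149 to 1767 CPM in WT and 1108 to 1220 CPM in cKO CD103+CD11b- DCs. None of the 23 cDC1 identity genes was called by edgeR's quasi-likelihood test, with 1 in each direction at an unadjusted p under 0.05 (11.1% of all genes in both directions) and 1 negative gene called by DESeq2. In 10 of the 23 every cKO CD103+CD11b- sample lay above every WT sample, as in 7.51% of all genes, and the summed level was 7345 to 9890 CPM in WT and 9337 to 11700 CPM in cKO samples, which overlapped.

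**Figure D4:**
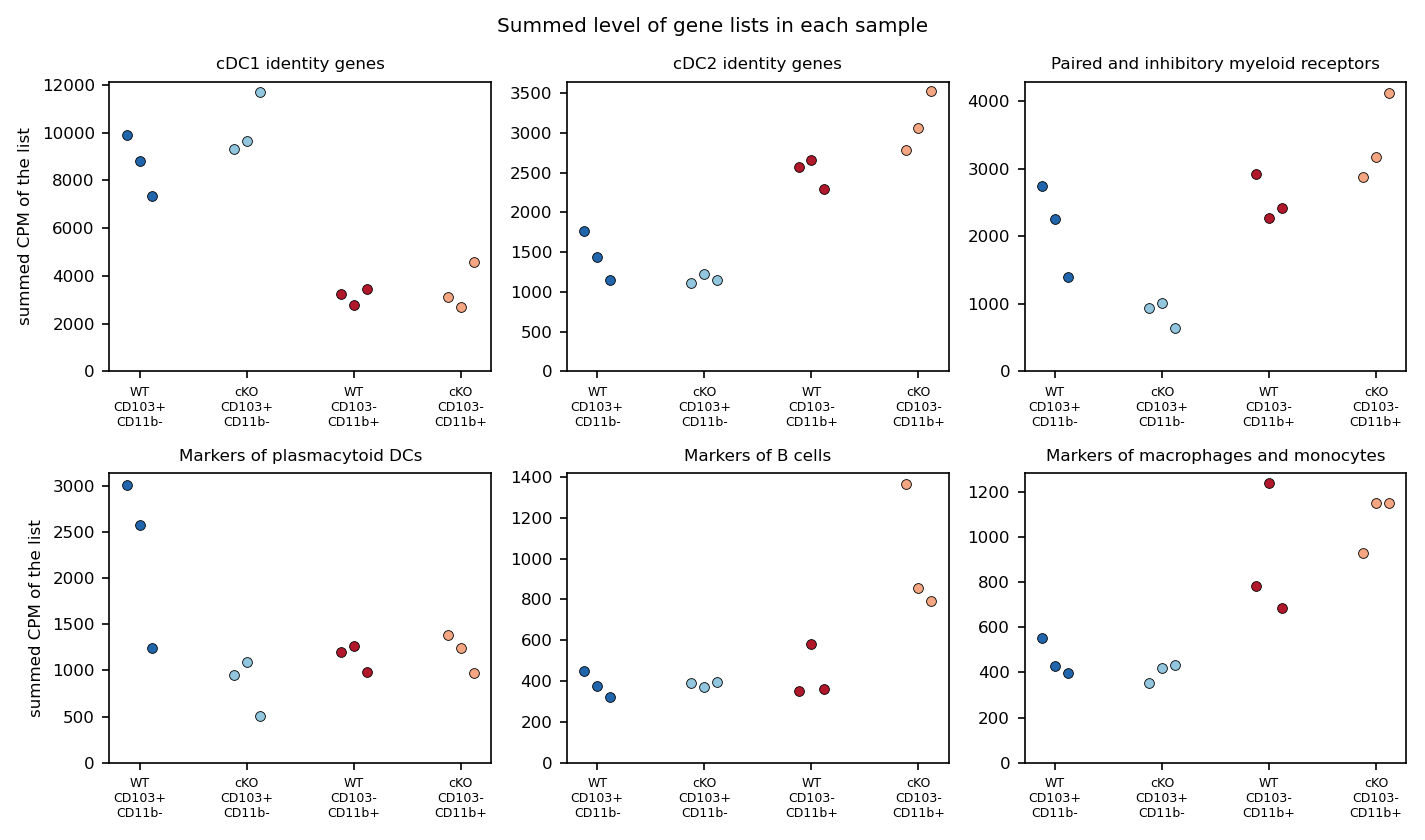
Summed CPM of 6 gene lists in each sample (points), for WT and Cbfb-cKO (cKO) samples of each subset. The cDC1 genes separate the subsets in both genotypes, the paired receptors and the plasmacytoid DC markers are lower in all 3 cKO than in all 3 WT CD103+CD11b- samples, and the B cell markers are higher in the cKO CD103-CD11b+ samples than in all others.

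Further one-sided falls in CD103+CD11b- DCs came from several families. Stra6l, a receptor for retinol-binding protein, was at 208, 143 and 170.1 CPM in WT and 28.6, 27.8 and 16.8 CPM in cKO CD103+CD11b- DCs, and at 354, 191 and 207 and 235, 253 and 311 CPM in CD103-CD11b+ DCs. Mcemp1, a membrane protein of mast cells and other myeloid cells, was at 25.99, 19.7 and 19.7 CPM in WT and 1.997, 2.2 and 0.391 CPM in cKO CD103+CD11b- DCs. The CD103-CD11b+ samples were at 46.6, 22.99 and 34.9 CPM in WT and 40.9, 35.5 and 44.9 CPM in cKO mice. Both were separate by genotype in CD103+CD11b- DCs alone, with differences of 2.89 (standard error 0.38, FDR 0.00993) and 3.91 (standard error 0.52, FDR 0.0113).

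Ccr1, a receptor for inflammatory chemokines, was at 93.7, 70.7 and 69.5 CPM in WT and 5.99, 2.2 and 1.17 CPM in cKO CD103+CD11b- DCs, and at 162, 128 and 155 and 93.6, 124 and 268 CPM in CD103-CD11b+ DCs. It was the 1 called gene among 19 chemokine receptors (5.3%, against 0.651% of all genes), and DESeq2 called 3, against 2.46% of all genes, while limma-voom called 0 of the list and gave Ccr1 an FDR of 0.051. Single calls in the other lists of 14 to 20 genes are to be read against the same 0.651%. Il1rn, which encodes the secreted antagonist of the interleukin-1 receptor and was the 1 called gene among 20 interleukin genes, was at 33.2, 20.8 and 22.3 CPM in WT and 1.78, 5.37 and 0.782 CPM in cKO CD103+CD11b- DCs. In CD103-CD11b+ DCs it was at 73.8, 85.3 and 79.7 and 96.1, 108 and 142 CPM, and its difference of 3.7 (standard error 0.55, FDR 0.0177) kept its call in 9 of 12 fits without 1 library.

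Hpgds, the haematopoietic synthase of prostaglandin D and the 1 called gene among 15 prostaglandin and leukotriene enzymes, was at 76.6, 88.8 and 54.6 CPM in WT and 24.6, 28.3 and 19.6 CPM in cKO CD103+CD11b- DCs. Levels in CD103-CD11b+ DCs were 46.98, 26.3 and 39.8 CPM in WT and 59.7, 88.04 and 101 CPM in cKO samples. The cKO samples lay above the WT samples in the second subset, but that change missed the limit (log2 fold change 1.13, standard error 0.27, FDR 0.0624). The difference was 2.72 (standard error 0.38, FDR 0.013), with an FDR of 0.0587 without cKO CD103+CD11b- replicate 1. Chn2, a GTPase-activating protein for Rac, was at 30.1, 31.8 and 30.1 CPM in WT and 15.1, 15.4 and 15.3 CPM in cKO CD103+CD11b- DCs, a one-sided fall with little spread, and at 72.4, 67.96 and 61.4 and 77.5, 90.9 and 88.7 CPM in CD103-CD11b+ DCs. Gm15527 and 9530036M11Rik overlap Chn2 on the other strand and were also called, and since counting ignored strand their reads cannot be told apart from those of Chn2.

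Mndal, of the interferon-inducible HIN domain family, was at 41.4, 48.5 and 32.5 CPM in WT and 18.4, 15.4 and 14.1 CPM in cKO CD103+CD11b- DCs, and at 77.9, 83.96 and 75.04 and 106, 105 and 109 CPM in CD103-CD11b+ DCs. Its neighbour and homolog Ifi203, which overlaps it, fell likewise in CD103+CD11b- DCs (log2 fold change -1.44, standard error 0.22, FDR 0.014), and the assignment of reads between these homologs is uncertain. Among 26 interferon-stimulated genes, 2 (7.7%, against 0.651% of all genes) were called, Oas1a and Ddx58, with differences of 2.6 (standard error 0.48, FDR 0.0422) and 1.93 (standard error 0.37, FDR 0.0486). Each of these kept its call in 2 of 12 fits without 1 library, and with limma-voom their FDRs were 0.135 and 0.0773 and 0 genes of the list were called. Acap1 was called with Arap2 among 19 Arf GTPase regulators (10.5%, against 0.651% of all genes), with a difference of 1.33 (standard error 0.26, FDR 0.0492) that kept its call in 2 of 12 such fits. Of these regulators limma-voom called 1, with an FDR of 0.0748 for Acap1, and DESeq2 called 5 positive and 1 negative.

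**Figure D5:**
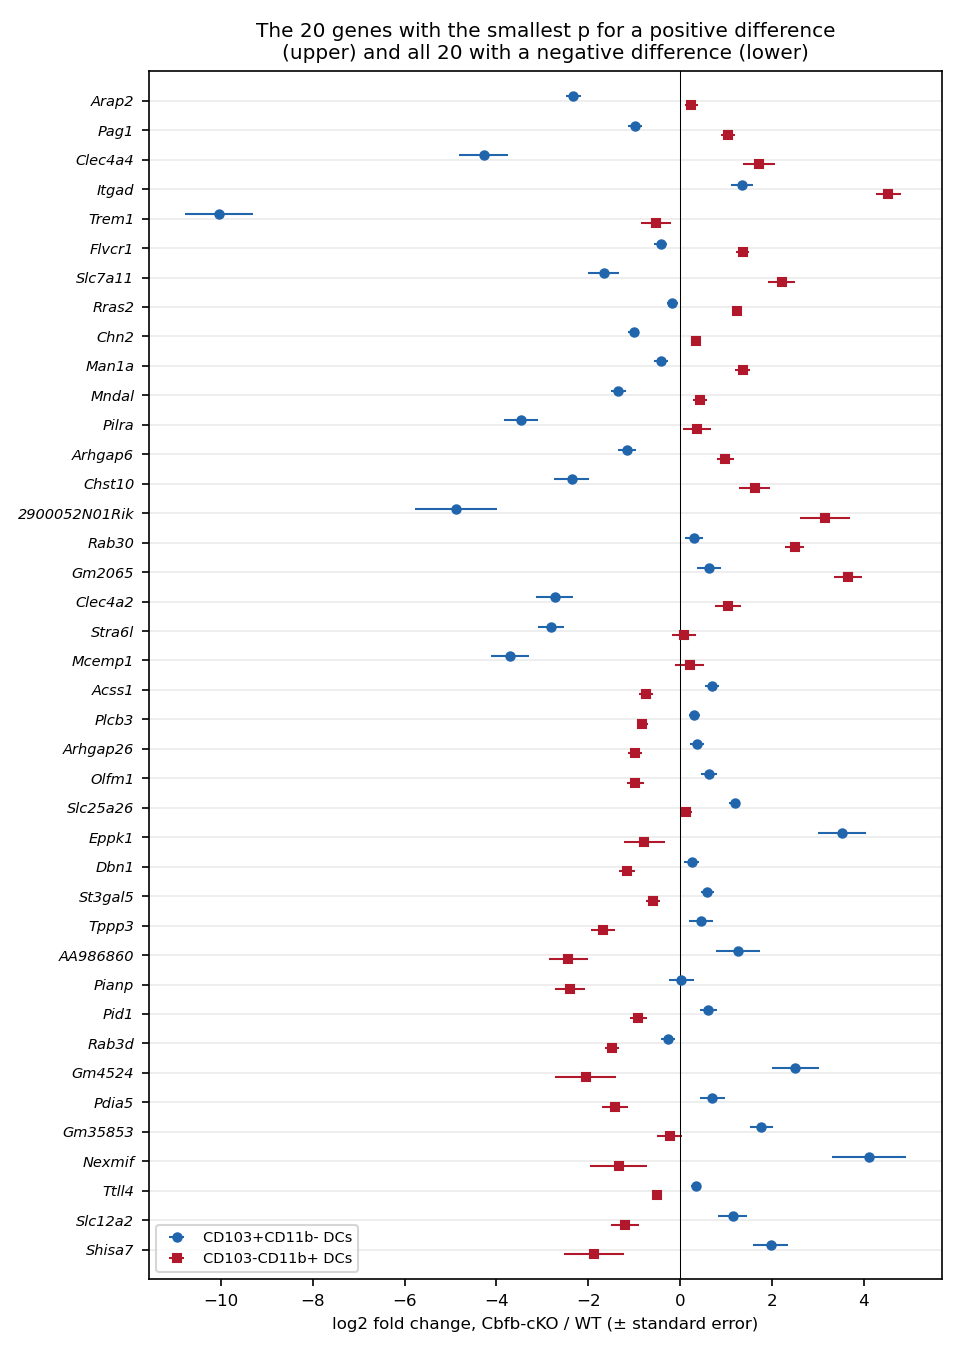
Log2 fold changes of Cbfb-cKO over WT (points, with standard errors) in CD103+CD11b- DCs (circles) and CD103-CD11b+ DCs (squares) for the 20 genes with the smallest p among positive differences, above, and all 20 genes with a negative difference, below. Squares lie to the right of circles in the upper block and to the left in the lower block, and the Trem1 circle stands for 0 counts in the cKO samples.

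The bases upstream of the transcript starts were searched for the core Runx motif TGTGGT or its reverse complement ACCACA, on both strands, in the 250 bases before each start that RefSeq gives (GRCm38.p6). Entries were found for 32 of the 40 genes with a one-sided fall in CD103+CD11b- DCs, and 9 of these (28.1%) held a match, against 13.6% of tested genes and 15.9% of all genes in the table. Counted per start, matches were in 22.4% of 49 starts of the class and in 11.5% of those of tested genes. The 9 genes were Apobec1, Ccr1, Hpgds, I830077J02Rik, Mcemp1, Pcyt1a, Pilra, S100a6 and Stra6l. Among genes with a one-sided rise in CD103-CD11b+ DCs, 3 of 24 (12.5%) held a match, and none of 4 opposite genes and none of 14 genes with a negative difference did. The other core searched, TGCGGT or ACCGCA, was in 9.4% of the 32 genes, in 8.4% of tested genes and in 5.8% of all genes. A match is no evidence of binding.

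The 250 bases are shown for the 3 genes of that class with a match among the 20 smallest p, with the match in capitals, and for Arap2 and Trem1, which lead the class and hold none. Each runs 5′ to 3′ on the strand of the gene and ends at the base before the start.
Pilra, chr5:137836279-137836528, minus strand: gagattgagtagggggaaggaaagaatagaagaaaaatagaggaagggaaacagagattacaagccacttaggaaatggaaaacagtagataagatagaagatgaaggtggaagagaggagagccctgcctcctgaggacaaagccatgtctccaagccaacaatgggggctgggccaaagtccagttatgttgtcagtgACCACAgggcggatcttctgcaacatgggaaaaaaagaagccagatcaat
Stra6l, chr4:45848566-45848815, plus strand: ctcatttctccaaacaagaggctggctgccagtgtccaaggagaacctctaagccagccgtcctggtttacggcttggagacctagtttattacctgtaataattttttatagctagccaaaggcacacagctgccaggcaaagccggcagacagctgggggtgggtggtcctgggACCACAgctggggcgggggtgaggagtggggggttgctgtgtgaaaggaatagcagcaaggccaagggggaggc
Mcemp1, chr8:3665512-3665761, plus strand: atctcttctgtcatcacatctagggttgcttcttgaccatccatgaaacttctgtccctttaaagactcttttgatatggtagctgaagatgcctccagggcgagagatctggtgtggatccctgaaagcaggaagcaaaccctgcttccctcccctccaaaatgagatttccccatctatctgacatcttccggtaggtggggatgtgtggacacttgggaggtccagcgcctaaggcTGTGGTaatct
Arap2, chr5:62766178-62766427, minus strand: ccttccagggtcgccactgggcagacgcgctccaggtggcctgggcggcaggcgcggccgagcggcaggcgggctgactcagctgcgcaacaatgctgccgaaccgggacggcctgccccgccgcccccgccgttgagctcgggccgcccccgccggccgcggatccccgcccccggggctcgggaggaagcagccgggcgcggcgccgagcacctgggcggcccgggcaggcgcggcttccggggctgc
Trem1, chr17:48232489-48232738, plus strand: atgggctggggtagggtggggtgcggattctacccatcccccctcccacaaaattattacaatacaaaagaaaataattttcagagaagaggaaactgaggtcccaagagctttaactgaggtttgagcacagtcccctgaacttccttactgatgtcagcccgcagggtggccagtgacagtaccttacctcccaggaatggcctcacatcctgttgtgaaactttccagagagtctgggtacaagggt
The match began 50 bases before the start in Pilra, 74 in Stra6l and 11 in Mcemp1, counted from the RefSeq starts. GENCODE M21 starts Stra6l at 45848664 and Mcemp1 at 3665754, so the match lies inside the annotated gene in Stra6l and runs into it in Mcemp1. Among 24 such windows of the leading positive genes, 15 were followed by bases that a GENCODE transcript holds, and those of Arap2 and Trem1 were not.

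The 6 genes with a one-sided rise in CD103+CD11b- DCs were Slc25a26, Eppk1, Gm4524, Gm35853, Nexmif and Shisa7. Slc25a26, the mitochondrial carrier of S-adenosylmethionine, was at 76.9, 76.6 and 90.2 CPM in WT and 190.2, 199 and 167 CPM in cKO CD103+CD11b- DCs. In CD103-CD11b+ DCs, WT samples were at 19.2, 16.99 and 18.6 CPM and cKO samples at 19.98, 21.2 and 18.9 CPM. The rise was 1.19 (standard error 0.12, FDR 0.00174) and the difference -1.06 (standard error 0.17, FDR 0.0227). Eppk1, which encodes the cytoskeletal linker epiplakin, was at 0.342, 0.229 and 0.485 CPM in WT and 3.99, 5.61 and 3.91 CPM in cKO CD103+CD11b- DCs, and at 3.52, 3.33 and 2.04 and 1.35, 2.62 and 1.02 CPM in CD103-CD11b+ DCs.

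The other four were low in at least 1 group. Gm35853 was at 13.7, 11.9 and 16.2 CPM in WT and 56.4, 56.1 and 29.7 CPM in cKO CD103+CD11b- DCs, and Shisa7, an auxiliary subunit of GABA receptors, at 9.57, 10.8 and 6.47 and 38.8, 46.1 and 19.9 CPM. Nexmif rose from 2 to 34 counts in CD103+CD11b- DCs, a ratio of 20.5 with an exact 95% interval of 5.26 to 176.4 that covers counting error only. Gm4524, which overlaps P3h2 on the other strand, was at 1.37, 0.686 and 1.29 CPM in WT and 7.54, 7.08 and 4.69 CPM in cKO CD103+CD11b- DCs. In CD103-CD11b+ DCs, Gm4524 and Shisa7 had 3 counts each in the cKO samples against 15 and 13 in the WT samples, with ratios of 0.217 (0.0404 to 0.769) and 0.251 (0.0459 to 0.913).

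Of the 51 genes with a one-sided change in CD103-CD11b+ DCs, 40 rose there and 11 fell. Flvcr1 (chromosome 1, 191005847 to 191026158), a transporter of heme and choline, was at 86.9, 83.5 and 107 CPM in WT and 69.2, 61.99 and 76.3 CPM in cKO CD103+CD11b- DCs. In CD103-CD11b+ DCs the levels were 99.4, 84.3 and 113 CPM in WT and 235, 265 and 265 CPM in cKO samples. The rise was 1.37 (standard error 0.14, FDR 0.00128) and the difference 1.79 (standard error 0.20, FDR 0.00685). In CD103+CD11b- DCs the cKO samples lay below the WT samples, but this change was not called (log2 fold change -0.42, standard error 0.14, FDR 0.248).

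Rras2, a GTPase of the Ras family with a one-sided rise in CD103-CD11b+ DCs, was at 43.1, 54.6 and 50.6 CPM in WT and 116, 115 and 119 CPM in cKO CD103-CD11b+ DCs, and at 44.1, 48.05 and 43.2 and 42.4, 40.5 and 37.2 CPM in CD103+CD11b- DCs. Man1a, a Golgi mannosidase that trims N-glycans, was at 282, 243 and 287 CPM in WT and 655, 773 and 657 CPM in cKO CD103-CD11b+ DCs, and at 205, 209 and 174 and 152, 175 and 115 CPM in CD103+CD11b- DCs. The antisense transcript Gm47917 overlaps Man1a and was called too, so the reads of the pair cannot be told apart.

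Rab30, a GTPase of the Golgi, was at 25.1, 17.7 and 13.4 CPM in WT and 112, 113 and 94.3 CPM in cKO CD103-CD11b+ DCs, and at 70.4, 84.2 and 82.6 and 85.9, 97.1 and 109.5 CPM in CD103+CD11b- DCs. Its level in cKO CD103-CD11b+ samples thus reached that of the other subset, and so did that of Gm2065, a noncoding transcript that overlaps Hmgn3 on the other strand, at 2.35, 2.998 and 4.94 CPM in WT and 30.3, 54.96 and 44.4 CPM in cKO CD103-CD11b+ DCs against 26.3, 30.7 and 22.6 and 39.3, 44.2 and 39.1 CPM in CD103+CD11b- DCs. The differences of Rras2, Man1a, Rab30 and Gm2065 were 1.41 (standard error 0.17, FDR 0.00903), 1.77 (standard error 0.22, FDR 0.00986), 2.2 (standard error 0.28, FDR 0.00986) and 3.04 (standard error 0.39, FDR 0.00993), all past the limit in each of the 12 fits without 1 library.

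Antigen presentation genes held 2 positive genes among 16 (12.5%, against 0.554% of all genes). H2-Eb2, an MHC class II beta chain, was at 11.2, 6.33 and 10.5 CPM in WT and 50.3, 29.5 and 29.1 CPM in cKO CD103-CD11b+ DCs, and at 10.6, 10.98 and 11.6 and 5.1, 2.93 and 6.65 CPM in CD103+CD11b- DCs. Cd1d1, which presents lipids to NKT cells, was at 30.1, 35.3 and 18.9 CPM in WT and 111, 156 and 172 CPM in cKO CD103-CD11b+ DCs, and at 14.4, 19.9 and 22.8 and 25.5, 21.7 and 25.4 CPM in CD103+CD11b- DCs. Their differences of 3.15 (standard error 0.48, FDR 0.0179) and 2.04 (standard error 0.35, FDR 0.0339) kept their calls in 7 and 4 of 12 fits without 1 library.

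Cdh17, a cadherin of the intestinal epithelium and of B cells, was at 6.85, 2.998 and 4.07 CPM in WT and 104, 90.9 and 46.9 CPM in cKO CD103-CD11b+ DCs, and at 15.05, 15.3 and 13.1 and 6.88, 18.1 and 5.48 CPM in CD103+CD11b- DCs. It was the 1 called gene among 14 epithelial markers, whose median difference had the other sign (-2.014), and in 5 of the 14 every cKO CD103-CD11b+ sample lay below every WT sample, as in 10.3% of all genes. Without cKO CD103+CD11b- replicate 1 its FDR was 0.0587. Cd22, an inhibitory sialic acid receptor of B cells and the 1 called gene among 15 B cell markers, was at 26.2, 34.3 and 22.4 CPM in WT and 136, 116 and 79.04 CPM in cKO CD103-CD11b+ DCs, and at 8.89, 6.86 and 7.76 and 10.4, 7.08 and 5.48 CPM in CD103+CD11b- DCs. Its difference of 2.0 (standard error 0.38, FDR 0.0474) kept its call in 1 of 12 fits without 1 library, and its FDR was 0.117 with limma-voom. Of the 15 markers, 5 were at an unadjusted p under 0.05, all positive (all genes: 11.1%), and the median difference was 1.636. DESeq2 called 3 of them (all genes: 2.46%) and limma-voom 0. The summed level of the 15 B cell markers was 352.4 to 580.4 CPM in WT and 791.4 to 1367 CPM in cKO CD103-CD11b+ samples, and each marker had counts in every group though up to 2 were at 0 in single samples. Their part in the rise of Cd22 and Cdh17 was not tested.

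Plcb3, a phospholipase C of receptor signalling and 1 of the 11 one-sided falls in CD103-CD11b+ DCs, was at 76.3, 97.3 and 86.7 CPM in WT and 48.04, 54.2 and 44.4 CPM in cKO CD103-CD11b+ DCs, and at 65.99, 62.5 and 68.6 and 83.7, 80.5 and 79.4 CPM in CD103+CD11b- DCs. Acss1, a mitochondrial acetyl-CoA synthetase, was at 83, 77.6 and 76.8 CPM in WT and 57.5, 37.4 and 46.4 CPM in cKO CD103-CD11b+ DCs, and at 69.4, 63.1 and 76.2 and 121, 101 and 118 CPM in CD103+CD11b- DCs, where the rise was not called (log2 fold change 0.70, standard error 0.15, FDR 0.0608). Both genes had cKO samples below the WT samples in CD103-CD11b+ and above them in CD103+CD11b- DCs.

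Pianp, which encodes a ligand of the receptor Pilra, was at 37.2, 15.3 and 16.6 CPM in WT and 4.27, 3.81 and 5.61 CPM in cKO CD103-CD11b+ DCs, and at 108, 108 and 105 and 115, 111 and 101 CPM in CD103+CD11b- DCs. Rab3d, a GTPase of secretory granules, was at 47.2, 40.6 and 44.5 CPM in WT and 17.1, 13.8 and 16.8 CPM in cKO CD103-CD11b+ DCs, and at 22.2, 21.96 and 19.7 and 19.3, 16.6 and 16.8 CPM in CD103+CD11b- DCs. Their falls were -2.39 (standard error 0.33, FDR 0.00632) and -1.47 (standard error 0.15, FDR 0.00128).

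The cytoskeletal genes Dbn1 (drebrin, which binds actin) and Tppp3 (which promotes tubulin polymerisation) fell by 1.16 (standard error 0.17, FDR 0.00964) and 1.68 (standard error 0.26, FDR 0.0119) on the log2 scale in CD103-CD11b+ DCs. The GTPase-activating protein Arhgap26, the secreted protein Olfm1, the disulfide isomerase Pdia5, the adaptor Pid1 and the transcript AA986860 fell there by 0.98 (standard error 0.15, FDR 0.00986), 0.98 (standard error 0.18, FDR 0.0246), 1.42 (standard error 0.28, FDR 0.0375), 0.91 (standard error 0.19, FDR 0.0434) and 2.43 (standard error 0.42, FDR 0.0191). Gm28857 overlaps AA986860 on the other strand, so their reads cannot be told apart. None of the 20 genes with a negative difference kept its call in all 12 fits without 1 library. Acss1 did in 9, Arhgap26 in 8, Plcb3 in 7 and Olfm1 and Eppk1 in 6, while Nexmif and Shisa7 did in 1 and Rab3d, Gm4524 and Ttll4 in 0, and the others in 2 to 5. With limma-voom the calls of Slc25a26 (FDR 0.0572), Pianp (0.0631), Gm35853 (0.137), Ttll4 (0.0572), Slc12a2 (0.0528) and Shisa7 (0.203) were lost. No gene with a negative difference was called without replicate 1 of the WT or of the cKO CD103+CD11b- DCs, and 56 were without replicate 1 of the WT CD103-CD11b+ DCs.

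Itgad and Clec12a changed in the same direction in both subsets and further in CD103-CD11b+ DCs. Itgad, the integrin alpha chain CD11d and the 1 called gene among 19 leukocyte integrins, was at 22.6, 18.99 and 12.9 CPM in WT and 45.5, 56.6 and 35.2 CPM in cKO CD103+CD11b- DCs, and at 9.2, 5.33 and 7.27 and 157, 172 and 187 CPM in CD103-CD11b+ DCs. The changes were 1.35 (standard error 0.24, FDR 0.0304) and 4.54 (standard error 0.27, FDR 7.9e-05), and the difference was 3.19 (standard error 0.35, FDR 0.00685). The transcript 4931431B13Rik overlaps Itgad on the other strand and was also called, so its reads cannot be told apart from those of Itgad. Clec12a, an inhibitory lectin for uric acid crystals, was at 111, 109 and 116 CPM in WT and 183, 199.9 and 226 CPM in cKO CD103+CD11b- DCs, and at 34.1, 30.98 and 23.3 and 130.0, 176 and 123 CPM in CD103-CD11b+ DCs, with a difference of 1.42 (standard error 0.24, FDR 0.0295) that kept its call in 4 of 12 fits without 1 library.

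For 28 genes the difference was called and neither single change was. The 3 with a negative difference were St3gal5, which makes the ganglioside at the root of most others, Ttll4, a tubulin polyglutamylase, and Slc12a2, a sodium, potassium and chloride cotransporter. St3gal5 was at 115, 119.7 and 119 CPM in WT and 174, 175 and 184 CPM in cKO CD103+CD11b- DCs, and at 39.9, 54.97 and 43.9 and 30.1, 26.4 and 36.2 CPM in CD103-CD11b+ DCs, so that the genotypes were separate in both subsets. The differences of Ttll4 and Slc12a2 were -0.84 (standard error 0.16, FDR 0.0451) and -2.34 (standard error 0.44, FDR 0.0472).

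Runx2, 1 of the 3 Runx partners of Cbfβ, fell short of the limit with a difference of 2.27 (standard error 0.45, FDR 0.0541). None of the 7 Runx, Cbfb and ETO genes was called by edgeR's quasi-likelihood test. At an unadjusted p under 0.05 (all genes: 11.1%) there were 2, and DESeq2 called 1 (all genes: 2.46%). None of the 22 DC lineage transcription factors was called by the first test, against 3 at an unadjusted p under 0.05 and 2 called by DESeq2, with the smallest p for Irf4, whose difference was 1.77 (standard error 0.42, FDR 0.11). Irf4, a factor needed by cDC2, was at 209, 141 and 188 CPM in WT and 37.3, 54.2 and 66.1 CPM in cKO CD103+CD11b- DCs. CD103-CD11b+ DCs had 329, 280.2 and 396 CPM in WT and 277, 229 and 495 CPM in cKO samples. The change in CD103+CD11b- DCs was called (log2 fold change -1.78, standard error 0.30, FDR 0.0241) and the difference between subsets was not.

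The same held for genes whose change upon Cbfβ loss is prominent within a subset. Il22ra2, the soluble antagonist of interleukin-22, was at 237, 163 and 155 CPM in WT and 0.888, 4.39 and 1.96 CPM in cKO CD103+CD11b- DCs, and at 220.2, 114 and 227 and 5.16, 7.38 and 17.8 CPM in CD103-CD11b+ DCs. It fell in both subsets and its difference of 1.92 (standard error 0.74, FDR 0.35) was not called. The cytokine Il18 was at 0.684, 1.83 and 1.94 CPM in WT and 4.66, 3.17 and 5.87 CPM in cKO CD103+CD11b- DCs, and at 5.68, 5.33 and 2.33 and 29.4, 34.5 and 33.7 CPM in CD103-CD11b+ DCs, with a difference of 1.33 (standard error 0.58, FDR 0.423). Itgae, which encodes CD103, was at 281, 138 and 150.1 CPM in WT and 81.5, 39.3 and 30.6 CPM in cKO CD103-CD11b+ DCs, a called fall (log2 fold change -1.89, standard error 0.36, FDR 0.0301), with a difference of -1.76 (standard error 0.49, FDR 0.186).

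Signalling pathways linked to intestinal DCs gave no called gene by edgeR's quasi-likelihood test. Counts at an unadjusted p under 0.05 are to be read against 11.1% of all genes, and calls by DESeq2 against 2.46%. Of 19 TGF-beta signalling genes, 5 were at an unadjusted p under 0.05 and 1 was called by DESeq2, and the smallest p was that of the receptor Tgfbr1, whose difference was 1.58 (standard error 0.36, FDR 0.0919). Of 13 retinoic acid genes, 6 were at that p and 1 was called by DESeq2, and the receptor Rara had the smallest p with a difference of -0.52 (standard error 0.13, FDR 0.139). Of 23 Notch pathway genes, 1 was at that p and 1 was called by DESeq2, and the receptor Notch4 had the smallest p with a difference of -2.59 (standard error 0.57, FDR 0.0822).

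Of 18 Toll-like receptor genes, 8 were at an unadjusted p under 0.05 (all genes: 11.1%), none was called by edgeR's quasi-likelihood test and 4 were by DESeq2, all positive. Of 23 chemokines, 2 were at that p, none was called by the first test and 1 was by DESeq2, and Ccl2 had the smallest p with a difference of -4.88 (standard error 1.01, FDR 0.063). Costimulatory and checkpoint ligands (19 tested), adhesion G protein-coupled receptors (17), AP-1 and NF-kB genes (26) and cell cycle genes (23) had no called gene by edgeR's quasi-likelihood test, DESeq2 or limma-voom, and 2, 3, 1 and 0 genes at that p. C-type lectin receptors held 3 positive genes among 29 (10.3%, against 0.554% of all genes), which were Clec4a4, Clec4a2 and Clec12a. No list held a gene called with a negative difference by edgeR's quasi-likelihood test.

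No gene was called by that test among markers of plasma cells (8 tested), T and NK cells (15), and macrophages and monocytes (15). The same held for plasmacytoid DCs (11), granulocytes and mast cells (9), and stroma and endothelium (12). In this order, 1, 2, 1, 5, 2 and 0 genes were at an unadjusted p under 0.05 (all genes: 11.1%). DESeq2 called 1, 0, 0, 4, 1 and 0 (all genes: 2.46%). The summed stromal markers spread widely in CD103-CD11b+ DCs, from 1585 to 4341 CPM in WT and from 446.2 to 3111 CPM in cKO samples. The summed macrophage markers were 685.6 to 1238 CPM in WT and 929.9 to 1151 CPM in cKO CD103-CD11b+ samples. Of these 15 markers Adgre1 alone had a called change there, a rise (log2 fold change 1.93, standard error 0.38, FDR 0.0336). The median log2 change of the 15 was 0.002. The summed granulocyte and mast cell markers were higher in all cKO than in all WT CD103-CD11b+ samples, at 467 to 567.5 against 294.8 to 377.3 CPM, with 1 to 3 of the 9 at 0 in each sample. Among them Csf3r, a receptor for a granulocyte growth factor, rose there (log2 fold change 1.44, standard error 0.29, FDR 0.0353). Their part in the one-sided changes of CD103-CD11b+ DCs was not tested. Treml2, Treml4, Cd300lf, Sirpb1b, Sirpb1c, Sirpa, Siglech, Ifi203, the genes listed with a promoter match and the overlapping transcripts were named after their values were seen.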

How the data were processed

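The series holds RNA-seq of 12 samples of sorted small intestinal DCs, 3 for each genotype and subset, from PCR-amplified RamDA-seq libraries. The authors trimmed reads (Trim Galore), mapped them to mm10 with STAR 2.7, removed low-quality and duplicate reads, and counted them on genes without regard to strand (HTSeq), with tools as in the submitters' processing notes. The deposited values are raw counts per gene, without normalization. Titles gave the group of each sample. Depth was 2161929 to 5863484 counts on genes per sample, and intervals from counts cover counting error only. The 5 summary lines of each file were left out.

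With R 4.3.3, TMM scaling and edgeR 4.0.16 gave 1 quasi-likelihood fit over all 4 groups (limma 3.58.1 for limma-voom). Benjamini-Hochberg adjustment ran over the 20580 genes tested (FDR). Symbols and positions came from GENCODE M21 (GRCm38), upstream bases from RefSeq (GRCm38.p6), and figures from matplotlib 3.10.9. The fit was tested on simulated data. Named were the 20 genes with the smallest p in each direction, the opposite class, the leading genes of each list and Cbfb, Il18 and Il22ra2. The members and gene lists were chosen with earlier results of these data known. Alternatives were other filters, RLE, DESeq2 1.42.0, edgeR's likelihood ratio test, limma-voom, replicate blocks, other limits and leaving out each library.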

Additional observations from a re-analysis of the deposited data

Results flagged for a closer look

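The effect of Cbfβ loss differed between the subsets by the interaction test for 134 genes, and each of the genes below passed that test at an FDR under 0.05. Groups of 3 samples were not searched for single outlying samples. Values are the log2 fold change in CD103-CD11b+ minus that in CD103+CD11b- DCs. Those of genes with 3 or fewer counts in a group (Trem1, Clec4a4, 2900052N01Rik, Nexmif, Gm4524 and Shisa7) depend on the prior count of the fit and are no bounds. Few counts also lie behind the values of Ryr3 and Sirpb1a, with 5 and 4 in the cKO CD103+CD11b- samples. Without 1 library these 2 values ran from 8.283 to 12.8 and from 4.162 to 8.404.

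Among genes with opposite changes, the differences were 2.03 for Pag1, 5.98 for Clec4a4, 3.87 for Slc7a11, 2.14 for Arhgap6, 3.99 for Chst10, 8.04 for 2900052N01Rik and 8.97 for Ryr3. Among genes with a called change in CD103+CD11b- DCs only, positive differences were 2.57 for Arap2, 9.52 for Trem1, 1.35 for Chn2, 1.78 for Mndal, 3.85 for Pilra, 3.78 for Clec4a2, 2.89 for Stra6l, 3.91 for Mcemp1, 3.70 for Il1rn, 2.72 for Hpgds, 4.64 for Ccr1, 4.82 for Siglece, 3.23 for Cd300a and 1.33 for Acap1. Among genes with a called change in CD103-CD11b+ DCs only, positive differences were 1.79 for Flvcr1, 1.41 for Rras2, 1.77 for Man1a, 2.20 for Rab30, 3.04 for Gm2065, 3.15 for H2-Eb2, 2.04 for Cd1d1, 2.0 for Cd22 and 4.57 for Cdh17. For genes that rose in both subsets, the differences were 3.19 for Itgad and 1.42 for Clec12a. Where neither single change was called, positive differences were 4.82 for Sirpb1a, 2.60 for Oas1a and 1.93 for Ddx58.

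Negative differences among genes with a called rise in CD103+CD11b- DCs only were -1.06 for Slc25a26, -4.30 for Eppk1, -4.57 for Gm4524, -2.0 for Gm35853, -5.46 for Nexmif and -3.86 for Shisa7. Those among genes with a called fall in CD103-CD11b+ DCs only were -1.45 for Acss1, -1.13 for Plcb3, -1.35 for Arhgap26, -1.61 for Olfm1, -1.42 for Dbn1, -2.14 for Tppp3, -3.69 for AA986860, -2.41 for Pianp, -1.52 for Pid1, -1.20 for Rab3d and -2.12 for Pdia5. Those with neither single change called were -1.18 for St3gal5, -0.84 for Ttll4 and -2.34 for Slc12a2.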

How the results depend on the processing

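None of the 134 called genes changed direction under any alternative in which it was tested, and these used all or most of the same samples. The numbers of called genes (134 in all, 114 positive, 20 negative, 7 opposite, 51 one-sided in CD103-CD11b+ and 46 one-sided in CD103+CD11b- DCs) stayed within 1.5 times with RLE scaling, edgeR's own filter, a filter of 5 counts in every sample and no limit on fold, and for limma-voom in all but the opposite (3) and CD103+CD11b- one-sided (27) genes. Without a filter on low counts they were 205 in all, 172 positive, 33 negative and 86 one-sided in CD103+CD11b- DCs. DESeq2 gave 506, 333, 173, 33, 223 and 165, and edgeR's likelihood ratio test 413, 302, 111, 27, 167 and 153, in the order of the main numbers. An FDR under 0.01 left 19, 19, 0, 0, 8 and 7. The cause of these differences was not tested.

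The samples share replicate numbers that the labels do not tie to animals, and deviations of same-numbered samples of 1 genotype correlated over 0.1 in 5 of 6 pairs (from -0.0846 to 0.357), with 10 of 12 samples correlating best with their own number, so the block was kept as an alternative. With the replicate number as a block over all groups, 330, 268, 62, 30, 125 and 129 genes were called. With the replicate block within genotype, 328 were called, 250 positive and 78 negative, and single changes cannot be estimated there. The latter fit ended the calls of 4 named genes, AA986860 and Gm35853 (FDR 0.0556 each), Nexmif (0.0507) and Ddx58 (0.0505).

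Leaving out 1 library gave 29 to 210 genes in all, 29 to 154 positive, 0 to 56 negative, 1 to 9 opposite, 12 to 108 one-sided in CD103-CD11b+ and 11 to 66 one-sided in CD103+CD11b- DCs. For WT CD103+CD11b- replicates 1, 2 and 3 the totals were 41, 37 and 138, for WT CD103-CD11b+ 210, 59 and 46, for cKO CD103+CD11b- 29, 53 and 77, and for cKO CD103-CD11b+ 47, 49 and 70, each with 2 samples left in that group. Of 55 named called genes, 22 kept their call in all of these fits, 38 in all other settings and 21 in both. With 3 samples a group, 2161929 to 5863484 counts a sample and few counts for many genes, a missing call does not show equal changes.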
